A study of Rattus norvegicus with 6 samples.

Results

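The genes described here are the proteasome genes (symbols beginning Psma to Psmg) and the ubiquitin-conjugating enzyme, or E2, genes (symbols beginning Ube2) that carried a peak of trimethylated lysine 27 of histone H3 (H3K27me3) in at least 1 library of neonatal rat cardiomyocytes. A gene entered by the pattern of its symbol alone, with upper and lower case treated alike. The rule found 85 entries, 47 of proteasome genes and 38 of E2 genes, among the 22427 genes that the 4 deposited lists name together. An entry is 1 Ensembl gene ID. The 85 entries have 81 different symbols, since Psmb6, Psme3, Ube2n and Ube2wl each have an additional ID.

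The cells were primary heart muscle cells of newborn Sprague Dawley rats, grown in medium with serum. One group received 5 mM α-ketoglutarate (α-KG) for 24 h, and the control group received phosphate-buffered saline (PBS) for the same time. Each group has 2 H3K27me3 chromatin immunoprecipitation libraries, called α-KG 1, α-KG 2, control 1 and control 2, and 2 input samples were not analysed here. No source says that replicates were separate cultures, so each p-value measures only the spread between these libraries. The deposited values say for each library which genes had a peak. They give no peak height, position or read depth, so a gene is listed or not listed, and a peak in a few cells cannot be told apart from one in most cells.

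The proteasome is a barrel-shaped protease that degrades proteins tagged with ubiquitin. Its 20S core is built from rings of α subunits (Psma genes) and β subunits (Psmb genes), and its 19S cap, built from Psmc ATPases and Psmd subunits, binds, unfolds and feeds in the tagged protein. E2 enzymes take activated ubiquitin, or a relative such as NEDD8 or ISG15, from an E1 enzyme and pass it on with the help of E3 ligases. H3K27me3 is placed by Polycomb proteins and marks repressed genes, and α-KG is a cosubstrate of the enzymes that remove histone methylation. In the heart, protein turnover by this system shapes muscle mass and removes damaged sarcomere proteins.

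Of all 85 entries, 3 divided by treatment: 2 of the 61 in both α-KG libraries (3.28%, against 4.48% of all genes) and 1 of the 55 in both controls (1.82%, against 3.22%). Psma1 (ENSRNOG00000011745), an α-ring subunit, and Psmd2 (ENSRNOG00000001719), the cap subunit that docks ubiquitin receptors, had a peak in α-KG 1 and α-KG 2 but not in control 1 or control 2. Ube2l6 (ENSRNOG00000030467), the E2 for the interferon-induced modifier ISG15, had one in control 1 and control 2 but not in α-KG 1 or α-KG 2. Their promoters are shown because these are the genes whose listing separated the groups. They come from RefSeq on assembly GRCr8, read 5′ to 3′ on the strand of the gene, and cover the 250 bases before the annotated start. Capitals mark each CpG, the dinucleotide that is dense at many Polycomb-bound promoters. The lists were made on build rn6 and hold no positions, so it is unknown whether a peak lay in these stretches. Psmd2 (chr11:93763389-93763638, minus strand), Psma1 (chr1:177887858-177888107, minus strand) and Ube2l6 (chr3:90279455-90279704, plus strand) read as follows.
Psma1: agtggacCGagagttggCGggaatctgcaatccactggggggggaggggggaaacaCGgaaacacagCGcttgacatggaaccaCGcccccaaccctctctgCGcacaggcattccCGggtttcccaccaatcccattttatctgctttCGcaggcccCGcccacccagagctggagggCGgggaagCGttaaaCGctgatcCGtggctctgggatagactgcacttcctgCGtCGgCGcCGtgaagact
Psmd2: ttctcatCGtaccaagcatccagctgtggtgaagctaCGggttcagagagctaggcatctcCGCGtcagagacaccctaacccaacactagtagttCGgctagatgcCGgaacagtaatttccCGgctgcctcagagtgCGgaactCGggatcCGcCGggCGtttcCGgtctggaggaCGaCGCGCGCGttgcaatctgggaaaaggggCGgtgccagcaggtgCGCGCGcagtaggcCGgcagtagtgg
Ube2l6: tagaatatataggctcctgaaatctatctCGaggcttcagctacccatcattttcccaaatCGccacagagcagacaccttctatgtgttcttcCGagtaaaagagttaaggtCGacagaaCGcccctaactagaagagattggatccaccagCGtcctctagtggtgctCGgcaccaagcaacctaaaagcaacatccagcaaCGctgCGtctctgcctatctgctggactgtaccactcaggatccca
The stretch of Psmd2 holds 23 CpG, that of Psma1 17 and that of Ube2l6 9. The ratio of observed to expected CpG, taken over 300 bases that include 50 bases after the start, was 0.95 for Psmd2, 0.79 for Psma1 and 0.55 for Ube2l6.

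The 2 families differed in how steadily they were listed. Of the proteasome entries, 20 of 47 (42.6%) were in all 4 libraries, against 31 of 38 (81.6%) of the E2 entries. Over all genes listed in any library the share was 62.8%, so the proteasome genes lay below it and the E2 genes above it. A single library listed 10 proteasome entries (21.3%) and 3 E2 entries (7.89%), against 13.0% of all genes. The median proteasome entry was in 3 libraries and the median E2 entry in 4, the same as over all genes. Genes are not replicates and neighbours can share a peak, so no test across genes was made of this contrast.

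**Figure D1:**
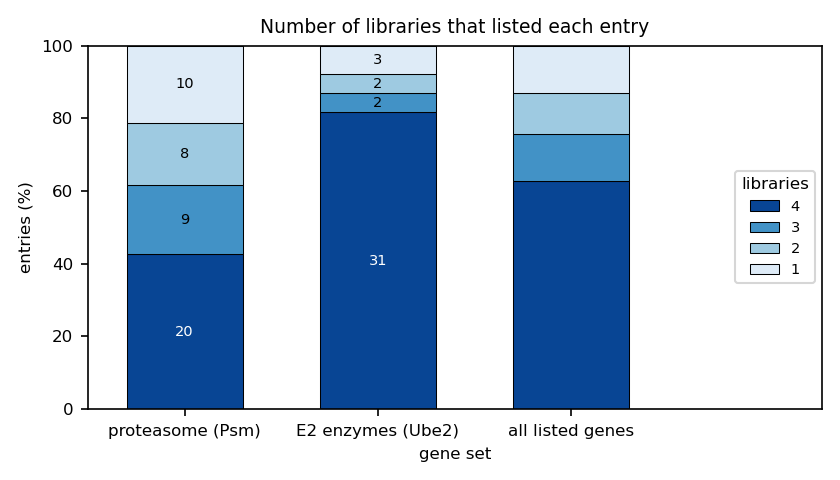
Bars give the percentage of entries that 4, 3, 2 or 1 of the libraries listed, for proteasome genes, E2 genes and all 22427 listed genes, with counts of entries printed in the bars of both families. The darkest part, entries in all 4 libraries, holds 20 proteasome and 31 E2 entries.

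The contrast stood in each library, though its size varied. The proteasome share was 63.8% in α-KG 1, 87.2% in α-KG 2, 53.2% in control 1 and 78.7% in control 2. The E2 share was 86.8%, 92.1%, 86.8% and 94.7% in the same libraries. The proteasome share minus the E2 share was -23.0 percentage points in α-KG 1, -4.87 in α-KG 2, -33.7 in control 1 and -16.0 in control 2, so proteasome genes were listed less fully in all 4. All genes together had 80.8%, 85.5%, 76.9% and 82.2%. The E2 share was above that of all genes in every library, and the proteasome share was below it in all but α-KG 2.

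**Figure D2:**
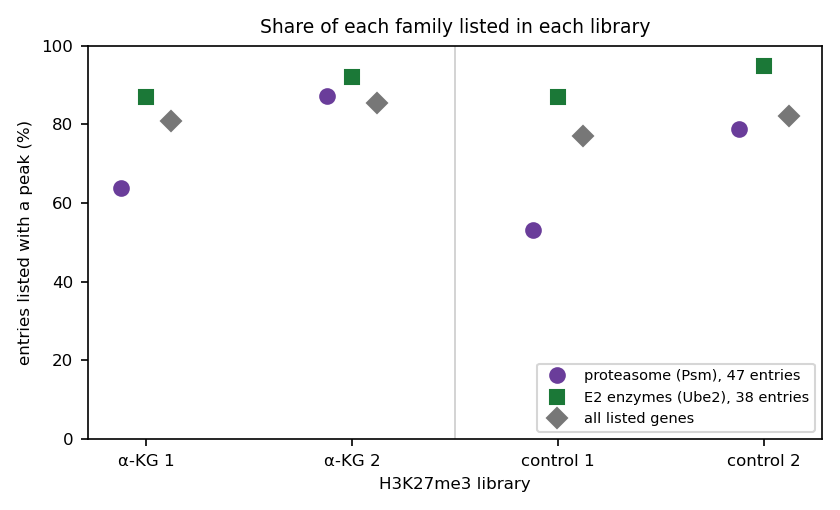
Points give the percentage of entries listed with a peak (vertical axis) in each H3K27me3 library (horizontal axis), with α-KG libraries on the left, for 47 proteasome entries, 38 E2 entries and all listed genes. Proteasome points spread from 53.2% to 87.2%, while E2 points stay between 86.8% and 94.7%.

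Whether α-KG changed the listing was asked for each family. The α-KG libraries listed 30 and 41 proteasome entries (mean 35.5 ± 7.78, SD, n = 2), and the controls 25 and 37 (mean 31 ± 8.49, SD, n = 2). The groups overlapped, and the difference of 4.5 entries was smaller than the spread within either group (exact two-sided permutation test over libraries, p = 0.667). It turned to -1 without α-KG 2 and to -1.5 without control 1, and was 10 without α-KG 1 and 10.5 without control 2. For E2 genes the α-KG libraries listed 33 and 35 entries (mean 34 ± 1.41, SD, n = 2), against 33 and 36 in the controls (mean 34.5 ± 2.12, SD, n = 2), a difference of -0.5 (exact permutation p = 1). Its sign, too, turned when 1 library was left out, with 0.5 without α-KG 1 and 1 without control 2.

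The treatment effect was not shown to differ between the families. The proteasome share minus the E2 share averaged -13.9 ± 12.8 points in α-KG libraries and -24.8 ± 12.5 in controls (SD, n = 2 each). The difference of 10.9 points had an exact two-sided permutation p of 0.667, and it was 20 without α-KG 1, 1.82 without α-KG 2, 2.07 without control 1 and 19.7 without control 2. With 2 libraries against 2, no such test can give less than 0.333. Between replicate numbers the proteasome counts stood further apart than between treatments, with 11.5 more entries on average in the libraries numbered 2 than in those numbered 1. The E2 genes had 2.5 more. All genes moved the same way, by 1129 of 22427, and the part of library depth in this could not be tested because no depth is given.

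The 3 entries divided by treatment were set against all genes. Among proteasome genes, 2 of the 29 entries in both α-KG libraries were in neither control (6.90%), where 4.48% of all such genes were. In the reverse direction, 0 of 22 proteasome entries in both controls were absent from both α-KG libraries, where 3.22% of all such genes were. The E2 genes had 1 of 33 in that direction (3.03%) and 0 of 32 in the other. With so few members, these shares lie too close to those of all genes to be a result about either family. They depended on single libraries. Without control 2, gained proteasome entries were 9 of 29 (31.0%), against 11.2% of all genes, and 7 of the 9 are those missing from control 1 alone. Without α-KG 1 they were 6 of 41 (14.6%, against 11.9%). Lost proteasome entries were 2 of 22 without α-KG 2 (9.09%, against 6.72%), 3 of 37 without control 1 (8.11%, against 5.56%) and 2 of 25 without control 2 (8%, against 5.24%). Without α-KG 1 the lost proteasome entries were 0 of 22 (0%, against 8.55%). Lost E2 entries were 2 of 33 without α-KG 1 (6.06%, against 8.55%) and 2 of 36 without control 1 (5.56%, the same as all genes). Gained E2 entries were 2 of 35 without α-KG 1 (5.71%, against 11.9%) and 1 of 32 without control 2 (3.12%, against 11.2%).

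Among the α-ring genes, 4 of 8 entries were in all 4 libraries: Psma4, Psma7, Psma8 and Psma3l. Psma8 encodes the α subunit of germ cells. RefSeq gives Psma3l as another symbol of Psma3, and the files do not say which of these entries is the gene. The entry Psma3 was missing from control 1 alone and Psma5 from α-KG 1 alone. Psma6 was in control 2 alone. With Psma1 in both α-KG libraries, the genes of the α ring showed 5 different patterns.

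The constitutive β-ring genes fell into those listed everywhere and those listed once. Psmb1, Psmb2, Psmb3 and Psmb4 were in all 4 libraries. Psmb6 and Psmb7 encode catalytic subunits. Psmb7 was in α-KG 2 alone. The symbol Psmb6 has an entry (ENSRNOG00000019551) in control 2 alone, while an entry spelled PSMB6 (ENSRNOG00000011827) was in all 4, and the files do not say which is the gene and which a copy. Psmb8 and Psmb9, interferon-induced catalytic subunits of the immunoproteasome whose genes lie on both sides of Tap1 in the major histocompatibility complex, were also in all 4. Psmb10, which completes the immunoproteasome, was in control 1 alone, and the thymic subunit gene Psmb11 was in α-KG 2 and control 2.

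The cap was the least steadily listed. Of the 5 ATPase entries only Psmc1 was in all 4 libraries. Psmc2 was in α-KG 2 and control 2, Psmc3 in α-KG 1 alone, Psmc4 in control 2 alone and Psmc6 in α-KG 2 alone. Of the 11 non-ATPase entries, 3 were in all 4: Psmd6, Psmd7 and Psmd11. Psmd1, the largest scaffold of the cap, and Psmd3 were missing from control 1 alone. Psmd14, the deubiquitinase that strips ubiquitin from the substrate, was missing from α-KG 1 alone. The ubiquitin receptor gene Psmd4 and the scaffold gene Psmd8 were in α-KG 2 and control 2, Psmd12 in α-KG 2 and control 1, and Psmd13 in α-KG 2 alone. α-KG 2 listed all 11 non-ATPase entries, where α-KG 1 listed 6, control 1 listed 5 and control 2 listed 8. Since Psmd13 is a member only through α-KG 2, the full count there is partly set by the rule of entry. Of all genes, α-KG 2 listed 85.5%, α-KG 1 80.8%, control 1 76.9% and control 2 82.2%.

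Among the regulators of the proteasome, 3 of 5 entries were in all 4 libraries, and among its assembly chaperones 2 of 7. Psme4, an activator of nuclear proteasomes, and both entries of Psme3, the nuclear PA28γ activator, were in all 4 libraries. The domain names of one Psme3 entry (ENSRNOG00000036806) include those of a glucose-6-phosphatase and a copper amine oxidase, so its gene model takes in more than Psme3. Psme1, part of the interferon-induced PA28 activator, was in α-KG 2 alone, and the regulator gene Psmf1 was missing from control 1 alone. The chaperone genes in all 4 were Psmg1 and Psmg4. PSMG3, Psmd5 and Psmd10 were missing from control 1 alone, PSMD9 was in α-KG 2 and control 2, and Psmg2 was in control 1 alone. Entries of the 20S core and 19S cap were in all 4 libraries in 15 of 35 cases (42.9%), and the other proteasome entries in 5 of 12 (41.7%). The first of these shares joins unlike parts. In the core it was 50% of α-ring, 71.4% of constitutive β-ring and 50% of immune or thymic β-ring entries. In the cap it was 20% of ATPase and 27.3% of non-ATPase entries, against 62.8% of all genes.

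**Figure D3:**
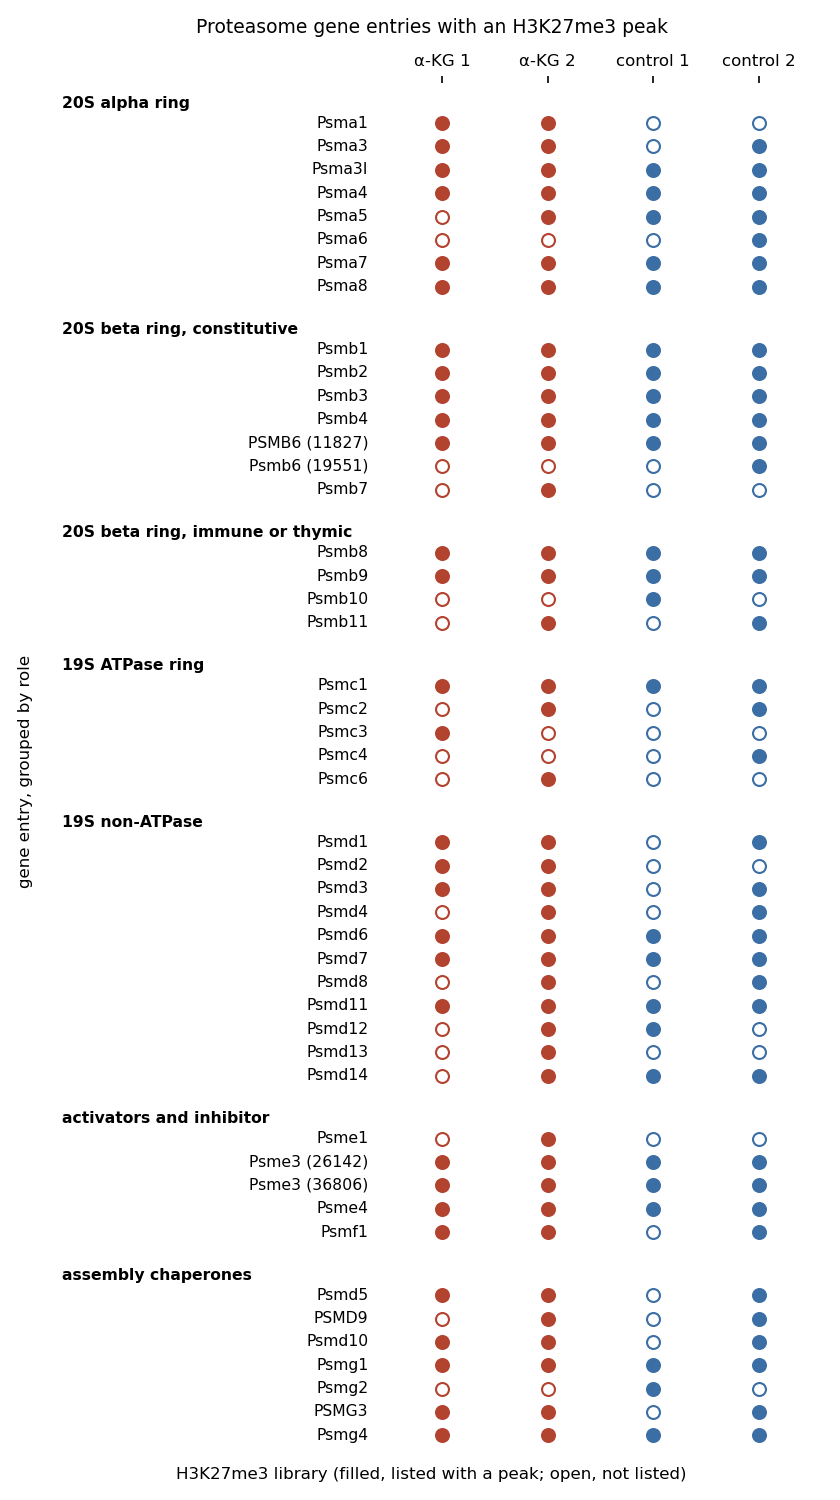
Each row is a proteasome gene entry and each column a library, with α-KG libraries (red) left of controls (blue); filled circles were listed with a peak and open circles were not. Numbers in brackets are the last digits of the Ensembl ID where a symbol has more than 1 entry. Control 1 has the most open circles, with 25 of 47 entries listed.

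Control 1 was the library most often missing from an otherwise full pattern. Of 27 proteasome entries in the other 3 libraries, 7 were missing from control 1 (25.9%): Psma3, Psmd1, Psmd3, Psmd5, Psmd10, Psmf1 and PSMG3. The share was 7.25% for all genes and 1 of 32 (3.12%) for E2 genes. A further 5 proteasome entries were in α-KG 2 and control 2 alone (10.6%, against 2.40% of all genes). Without control 1, the entries in each remaining library numbered 27 of 45 for proteasome genes and 32 of 38 for E2 genes.

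The E2 genes were listed nearly alike in all libraries. The ubiquitin chain starters Ube2d1, Ube2d3, Ube2e1, Ube2e2 and Ube2e3, and the copy Ube2d4l1, were in all 4, while Ube2d2 was in control 2 alone and Ube2d4 in α-KG 2 and control 2. All 4 E2 genes linked to the endoplasmic reticulum, where Ube2g1, Ube2g2, Ube2j1 and Ube2j2 serve the disposal of misfolded proteins, were in all 4 libraries. So were UBE2M and Ube2f, which conjugate NEDD8.

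E2 genes of the cell cycle and DNA repair held 3 of the 6 other exceptions, the entries of Ube2b, Ube2c and Ube2n. Ube2c, which starts the ubiquitin chains of the anaphase-promoting complex, was in α-KG 2 alone, whereas its partner Ube2s, which extends them, was in all 4. Ube2b was in α-KG 2 alone, and its close relative Ube2a, which like it serves DNA damage tolerance, was in all 4. Ube2t, an enzyme of DNA crosslink repair, and Ube2v1 and Ube2v2, inactive partners of Ube2n, were in all 4. Ube2n had an entry in all 4 and a second (ENSRNOG00000050626) that was missing from α-KG 2 alone. Reads of near-identical copies can be shared between such entries, so their states are uncertain. Among the other 13 E2 entries, 12 were in all 4, among them Ube2h, Ube2k, Ube2l3, Ube2o and Ube2z, and the exception was 1 of the entries of Ube2wl, missing from control 1 alone.

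**Figure D4:**
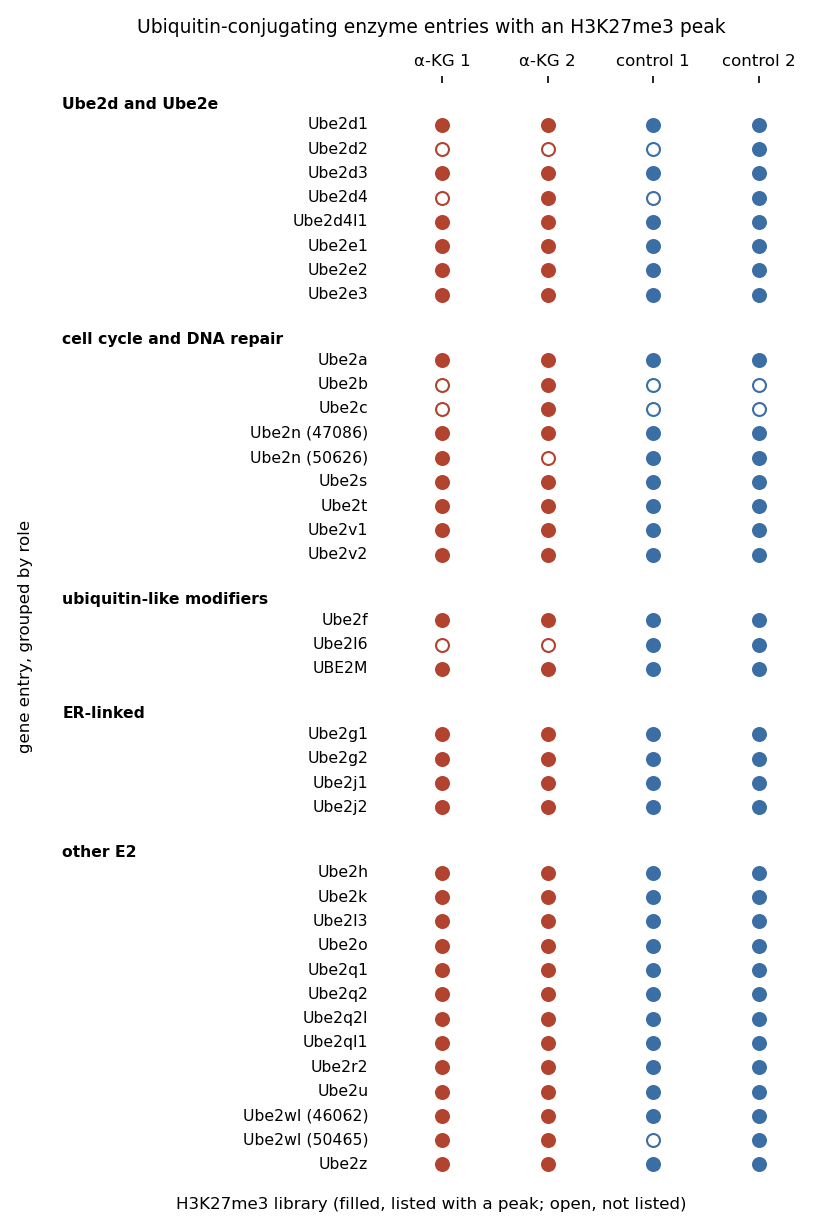
Each row is an E2 gene entry and each column a library, with α-KG libraries (red) left of controls (blue); filled circles were listed with a peak and open circles were not, and numbers in brackets are the last digits of the Ensembl ID. Of the 37 rows drawn, 30 are filled throughout, and Ube2l6 is the 1 row filled in both controls only.

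A gene of either family could also have no entry at all, which the rule does not see. Of the protein-coding genes whose RefSeq symbols match these patterns, 44 of 54 with a proteasome symbol and 34 of 45 with an E2 symbol had an entry under the current symbol, against 62.5% of all 23154 protein-coding genes. Those in all 4 libraries were 18 of 54 with a proteasome symbol (33.3%) and 30 of 45 with an E2 symbol (66.7%), with 41.2% of all protein-coding genes between them. A symbol with several entries counts here by the entry in the most libraries, which places Psmb6 and Ube2n among those in all 4. The 54 take in Psmc3ip and Psme3ip1, named for interacting proteins, which had no entry under these symbols. The other 8 without one include Psma2, the catalytic subunit gene Psmb5, the ATPase gene Psmc5 and the activator gene Psme2. The 11 E2 genes without one were Ube2w, Ube2d2b and 9 whose symbols mark them as copies of other E2 genes. Genes listed under an older symbol count here as having no entry. RefSeq gives Nip30, which is listed, as a synonym of Psme3ip1, and the listed Ube2d2 and Ube2d4 as synonyms of Ube2d2b.

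Choosing entries by protein domain instead of symbol gave closer shares. The 20S domain takes in neither the cap nor the regulators and chaperones, and the cause of the difference was not tested. In the lists, 25 entries carry a domain of the 20S core, of which 15 were in all 4 libraries (60.0%). The rule by symbol took in 19 of these 25, with 11 in all 4 (57.9%). Of the other 6, which are not named Psm and of which 5 have no symbol, 4 were in all 4. Entries with the E2 domain numbered 42, and 32 of them were in all 4 (76.2%). They include Cdc34, an E2 of cell cycle entry named outside the pattern, which was in α-KG 2 and control 2 alone.

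Promoter sequence was examined as a property that the rule did not use. RefSeq promoters of 300 bases were found for 37 proteasome and 27 E2 genes with a single entry. The median CpG observed/expected ratio was 0.73 for proteasome genes and 0.87 for E2 genes, against 0.69 for 11590 genes listed in any library. It was 0.29 for 7263 genes with no entry under the current symbol, some of which may be listed under an older one. The median GC content was 57.0% for proteasome and 67.3% for E2 promoters. Among proteasome genes the ratio differed little between the 14 in all 4 libraries (median 0.76) and the 23 in fewer (0.73). Psmb10, in 1 library, had 0.54, and Psmb2, in all 4, had 1.14, but Psmg2, in 1 library, had 1.13. E2 genes in all 4 libraries ran from 0.13 for the copy Ube2d4l1 to 1.17 for Ube2e3. The proteasome and E2 shares were also read on each side of a split at a ratio of 0.6, chosen after the values were seen. Within a side this split does not make the ratios of the families alike, so CpG content is not matched. At or above the split the lowest ratio was 0.60 for proteasome genes (Psma8) and 0.74 for E2 genes (Ube2d3). On that side, 13 of 33 proteasome genes (39.4%) and 20 of 22 E2 genes (90.9%) were in all 4 libraries, against 70.0% of 6900 listed genes. Below the split lay 4 proteasome genes, 1 of them in all 4 libraries, and 5 E2 genes, 4 of them in all 4. Gene length was not available on the build of the lists, and its part in the contrast was not tested.

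**Figure D5:**
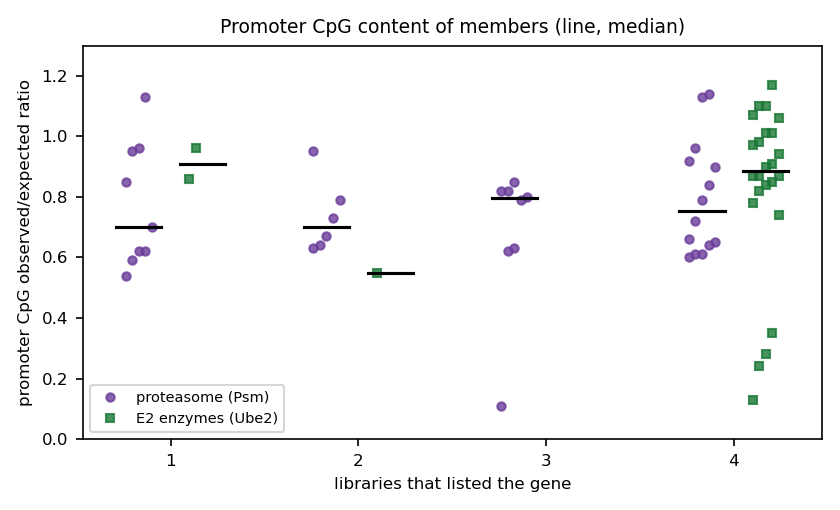
Each point is a gene with a single entry, placed by the number of libraries that listed it (horizontal axis) and by the CpG observed/expected ratio of its 300-base RefSeq promoter (vertical axis), with black lines at the medians. In the column of 4 libraries, the medians are 0.76 for 14 proteasome genes and 0.89 for 24 E2 genes.

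The antioxidant response element, through which the factor Nfe2l1 is known to raise proteasome genes together, was searched as its core TGACNNNGC on either strand of the same 300 bases. It was present in 6 of 37 proteasome promoters (16.2%), those of Psma3, Psmb2, Psmd1, Psmd3, PSMD9 and Psme4. In E2 promoters it was present in 7 of 27 (25.9%), and in all 19005 promoters in 12.7%. Neither Psma1 nor Psmd2 has these letters in its window.

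Since a broad H3K27me3 domain can cover several genes, the protein-coding neighbours of each member in the GRCr8 gene order were read as well. Ube2l6 lies next to Smtnl1, a regulator of muscle contraction, which had the same pattern as Ube2l6, in the control libraries alone. The neighbours of Psmd2, Eif4g1 and Ece2, were in all 4 libraries, as was Copb1 beside Psma1. Psmc2 shared its pattern, α-KG 2 and control 2, with its neighbour Dnajc2. This was the 1 proteasome gene of 26 placed with fewer than 4 libraries that shared a neighbour's pattern (3.85%, against 9.48% of all such genes). Of these 26, 19 (73.1%) lay beside a gene that was in all 4, against 64.6% of all such genes. Among genes in all 4 libraries, 11 of 16 proteasome genes (68.8%) and 21 of 29 E2 genes (72.4%) had a neighbour in all 4, as did 76.3% of all such genes.

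The rest of the pathway was read from a list of 53 symbols, of which 47 had an entry. Sem1 and Shfm1 on it are symbols of 1 gene, listed as Shfm1. Of these, 29 (61.7%) were in all 4 libraries, close to the 62.8% of all genes. The 2 that divided by treatment were Uba1, the main E1 that activates ubiquitin, and Rps27a, a gene that encodes ubiquitin fused to a ribosomal protein. Both were in both α-KG libraries and in neither control, 2 of 35 entries in both α-KG libraries (5.71%, against 4.48% of all genes). None of the 30 entries in both controls was missing from both α-KG libraries. The 10 ubiquitin and E1 entries numbered 8 and 10 in the α-KG libraries (80% and 100%), against 5 and 7 in the controls (50% and 70%). All genes had 80.8% and 85.5% in the α-KG libraries, against 76.9% and 82.2% in the controls. Uba1 and Rps27a both belong to this group, as 2 of its 8 entries in both α-KG libraries (25%). With 10 entries, these counts are too few to be a result about the group. In the other groups of the list the treatments overlapped or met. E3 ligases had 11 and 13 against 10 and 15, and E2-like genes 5 and 4 against 4 and 5. Proteasome-linked genes had 8 and 8 against 7 and 8, and shuttles and segregase genes 6 and 7 against 6 and 6. The whole list had 38 and 42 in the α-KG libraries, against 32 and 41 in the controls, so its groups overlapped, as did those of all genes. Control 1 had the fewest ubiquitin and E1 entries and the fewest of the whole list, as it had of proteasome genes. None of these counts was tested.

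Of 9 proteasome-linked genes with other names, 6 were in all 4 libraries, and of 7 shuttles and segregase genes, 6. They include Adrm1, a ubiquitin receptor of the cap, the deubiquitinase gene Uchl5, the stress factor Nfe2l2, and Vcp, the segregase that pulls substrates out of complexes. Nfe2l1, spelled NFE2L1 in the lists, was missing from control 1 alone. Pomp, the maturation factor of the 20S core, was in control 2 alone. The other groups had lower shares in all 4 libraries, with 9 of 15 E3 ligases, 3 of 6 E2-like genes and 5 of 10 ubiquitin and E1 entries. Of the muscle ubiquitin ligases, Trim63 was missing from control 1 alone and Fbxo32 from α-KG 1 alone. Trim55 was in α-KG 1 and control 2, and Trim54 in control 2 alone. Of 6 cardiomyocyte markers, Tnnt2 and Actn2 were in all 4 libraries, Myh7 in α-KG 2 alone, Tnni3 in α-KG 1 alone and Nppa in control 2 alone, and Myh6 had no entry. The endothelial markers Pecam1, Cdh5 and Kdr and the fibroblast markers Dcn and Pdgfra were in all 4, Col1a1 was missing from α-KG 1 alone, and Col1a2 had no entry. Gene lists of this mark do not measure expression, so they cannot check the labelled cell type.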

How the data were processed

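The 4 H3K27me3 libraries, 2 from cells given α-KG and 2 from cells given PBS, were grouped by their titles. The authors deposited 1 list of genes per library, with an Ensembl gene ID, a symbol and protein domain names, no header and no score, count or position (unit: other). CASAVA, BWA, MACS2 and build rn6 appear in the submitters' processing notes, without versions or roles. How peaks were called against an input and assigned to genes is not given in the sources used here. Read depth is unknown, so no interval that needs it was computed.

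The lists were read with Python 3.11.15, pandas 2.3.3 and numpy 2.4.6, and figures were drawn with matplotlib 3.10.9. Counts of listed entries per library were compared by exact two-sided permutation tests over the 4 libraries. Loss (both controls, neither α-KG library), gain (the reverse) and listing in all 4 libraries were counted without a test. RefSeq on assembly GRCr8 gave names, gene order and promoters, matched by current symbol. The alternatives tried were each library left out in turn, the replicate number as a block, each symbol once, families chosen by protein domain, core subunits alone, and other backgrounds.

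The members and lists were chosen with earlier results of these data known. Every member lost, gained or listed in fewer than 4 libraries is named, and the others by role, except 1 E2 entry that is counted but not reported here by name.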

Additional observations from a re-analysis of the deposited data

How the results depend on the processing

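Leaving out 1 library at a time moved the α-KG minus control difference from -1.5 to 10.5 for proteasome entries, from -2 to 1 for E2 entries, and from 1.82 to 20 percentage points for the difference between families. Lost proteasome entries then numbered 0 to 3 and gained ones 2 to 9, and lost E2 entries 1 to 2 and gained ones 0 to 2, since fewer libraries had to share the pattern. By the same construction, the share of all genes was 5.24% to 8.55% for loss and 6.53% to 11.9% for gain, a setting chosen after seeing the data. Psma1, Psmd2 and Ube2l6 stayed among them each time. Families chosen by protein domain gave a proteasome difference of 0.5, where choice by symbol gave 4.5. Their E2 difference was 1 and their difference between families -0.381 points, both reversed in sign. The cause was not tested. The counts of entries in all 4 libraries stayed within 1.5 times under every alternative run, though leaving a library out can only keep or raise them. Other choices of members changed the totals, so the shares moved more. The proteasome share was 42.6% by symbol, 60% by domain and 33.3% of RefSeq genes, and the E2 share 81.6%, 76.2% and 66.7%.

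With a replicate block, the differences were 4.5 for proteasome entries (exact sign-flip p = 0.5), -0.5 for E2 entries (exact p = 1) and 10.9 points between families (exact p = 0.5), where 0.5 is the least that 2 pairs allow. The titles do not say whether libraries of the same number share anything but the number. Over all 22427 genes their deviations correlated at 0.05, which does not decide this. In both groups the library numbered 2 listed more genes than the library numbered 1, and a shared batch was not tested. Steps that need peak height, position or depth could not be run on gene lists.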
